A study of Mus musculus with 6 samples.

Results

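Plasma cell genes were followed in pro-B cells of mouse bone marrow, an early stage of B cell development, that were wild type or labelled as lacking the histone deacetylase HDAC7. The set holds 10 genes that mark or build antibody-secreting cells, namely Prdm1, Jchain, Sdc1, Irf4, Mzb1, Tnfrsf17, Ell2, Fkbp11, Cd38 and Slamf7. A gene counted as measured when a probe set of the array was annotated with its symbol alone, and its main value came from its probe set of highest mean over all 6 arrays. By this rule 6 of the 10 were measured, through 9 probe sets, among 17097 genes in all: Prdm1, Irf4, Ell2, Jchain, Fkbp11 and Tnfrsf17. Sdc1, which encodes the surface proteoglycan CD138, Mzb1, which encodes an endoplasmic reticulum protein that assists antibody assembly, Cd38, which encodes a surface enzyme that consumes NAD, and Slamf7, which encodes a receptor of the SLAM family, had no named probe set here and were not analysed.

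Each group had 3 mouse arrays, described as biological replicates, of B220+CD43+IgM- cells, separated on a cell sorter. The labels call 1 group wild type and the other HDAC7 deficient, from conditional mice; the sources used here do not give the Cre driver, the deleted exons, the strain, the sex, the age or whether animals were pooled. The study asked which genes foreign to the B lineage HDAC7 represses in these cells. All values below are log2 expression values, so that a difference of 1 is a 2-fold difference, and changes are HDAC7 deficient minus wild type.

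Plasma cells are the end stage of the B lineage and secrete antibody. Their programme is switched on by the transcription factors IRF4 and BLIMP-1 (Prdm1), which shut down the genes of earlier B cell stages, and by XBP1, which enlarges the secretory machinery. Pro-B cells lie at the other end of the lineage, before a complete antibody is made, and IRF4 already acts in the precursors, where it promotes light chain rearrangement. HDAC7 is a class IIa deacetylase that is recruited to DNA by MEF2 factors and represses transcription there.

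The stretch of 250 bases before the RefSeq start site (GRCm38.p6) is shown for the 2 measured genes with the largest change in each direction, Jchain and Tnfrsf17, because MEF2 is the factor through which HDAC7 reaches DNA. Jchain lies at chr5:88527898-88528147 on the minus strand and Tnfrsf17 at chr16:11313559-11313808 on the plus strand. Capitals mark matches, on either strand, to 8 motifs: the octamer ATGCAAAT, the composite ETS and IRF element, the tandem IRF element, the BLIMP-1 core GAAAGT, the PU.1 core GAGGAA, the CCACG part of the endoplasmic reticulum stress element, TATAAA, and the MEF2 consensus.
Jchain: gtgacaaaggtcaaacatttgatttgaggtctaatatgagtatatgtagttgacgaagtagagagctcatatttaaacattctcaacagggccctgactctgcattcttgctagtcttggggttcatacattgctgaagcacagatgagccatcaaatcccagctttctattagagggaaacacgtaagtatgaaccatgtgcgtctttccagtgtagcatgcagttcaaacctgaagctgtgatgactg
Tnfrsf17: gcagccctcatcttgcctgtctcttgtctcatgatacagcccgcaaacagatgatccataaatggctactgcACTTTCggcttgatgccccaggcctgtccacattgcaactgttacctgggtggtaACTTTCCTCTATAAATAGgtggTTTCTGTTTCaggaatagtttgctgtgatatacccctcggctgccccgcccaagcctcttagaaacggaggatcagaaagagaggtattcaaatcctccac
The Tnfrsf17 stretch held 6 matches to 5 of the motifs, and the Jchain stretch held none, so it is printed without capitals. In Tnfrsf17 the MEF2 match, CTATAAATAG, lay 115 to 106 bases before the start and contained the TATAAA match. A PU.1 core at 120 to 115 bases shared its last base with the MEF2 match and overlapped a BLIMP-1 core at 123 to 118 bases. The tandem IRF match followed at 101 to 92 bases before the start, and a further BLIMP-1 core lay at 178 to 173 bases. A MEF2 match was present in 2.92% of the 32851 promoter stretches of this length in the table, a tandem IRF match in 2.98%, a BLIMP-1 core in 12.3%, a TATAAA in 12.4% and a PU.1 core in 23.3%. Among the stretches of the other measured genes, none held a MEF2 match. Irf4 held a TATAAA, a PU.1 core and a CCACG, Prdm1 held a PU.1 core and 2 CCACG matches, 1 of the 2 Fkbp11 start sites held a PU.1 core and a CCACG, and Ell2 held no match. These are matches of letters, and binding was not measured.

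Wild-type replicate 3 differed from the other arrays over the whole table. Its correlations with the other 5 arrays over all probe sets were 0.70 to 0.82, its interquartile range was 1.72 against 2.27 to 2.93, and the 3' control of Actb exceeded the middle control by 1.69, against 0.16 to 0.26 elsewhere. The arrays also fell into 2 sets of 3 by the mean of the hybridisation spike-in controls. It was 8.64 to 9.17 in the spike-in-low set (HDAC7-deficient replicate 1 with wild-type replicates 1 and 2) and 9.99 to 10.78 in the spike-in-high set (HDAC7-deficient replicates 2 and 3 with wild-type replicate 3). Xist, expressed in female cells, divided the arrays in the same way, so that sex and hybridisation cannot be told apart. It read 4.87 to 5.38 in the spike-in-low set and 11.40 and 11.27 on HDAC7-deficient replicates 2 and 3. Wild-type replicate 3, at 8.51, lay between. Changes are therefore given with and without wild-type replicate 3 and within each spike-in set. Hdac7 itself was 9.06, 9.48 and 7.31 on the wild-type arrays and 9.95, 9.54 and 9.27 on the arrays labelled HDAC7 deficient, so the targeted gene did not check the labels. The second Hdac7 probe set was 8.40, 8.93 and 7.11 against 9.31, 9.08 and 8.68, and whether either lies in deleted exons is not known here.

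Of the 6 measured plasma cell genes, the arrays labelled HDAC7 deficient gave higher values for Jchain, Ell2 and Irf4 and lower values for Tnfrsf17, Prdm1 and Fkbp11. The groups did not overlap for 4 of them, 2 higher (Jchain, Ell2) and 2 lower (Tnfrsf17, Fkbp11), against 26.3% of all genes, of which 9.45% were higher and 16.8% lower. None passed limma's adjusted p of 0.05, as for all genes (0%), and 3 of 6 were under an unadjusted p of 0.05 (Tnfrsf17, Ell2 and Jchain), against 12.7% of all genes (3.52% higher, 9.14% lower). That count was 1 without HDAC7-deficient replicate 1, where the background was 5.58%. The median change over the 6 genes was 0.28, against -0.03 over all genes, and it was -0.0079 without wild-type replicate 3 and 0.42 without wild-type replicate 2. The median stands between 3 genes that were higher and 3 that were lower and describes none of them.

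**Figure D1:**
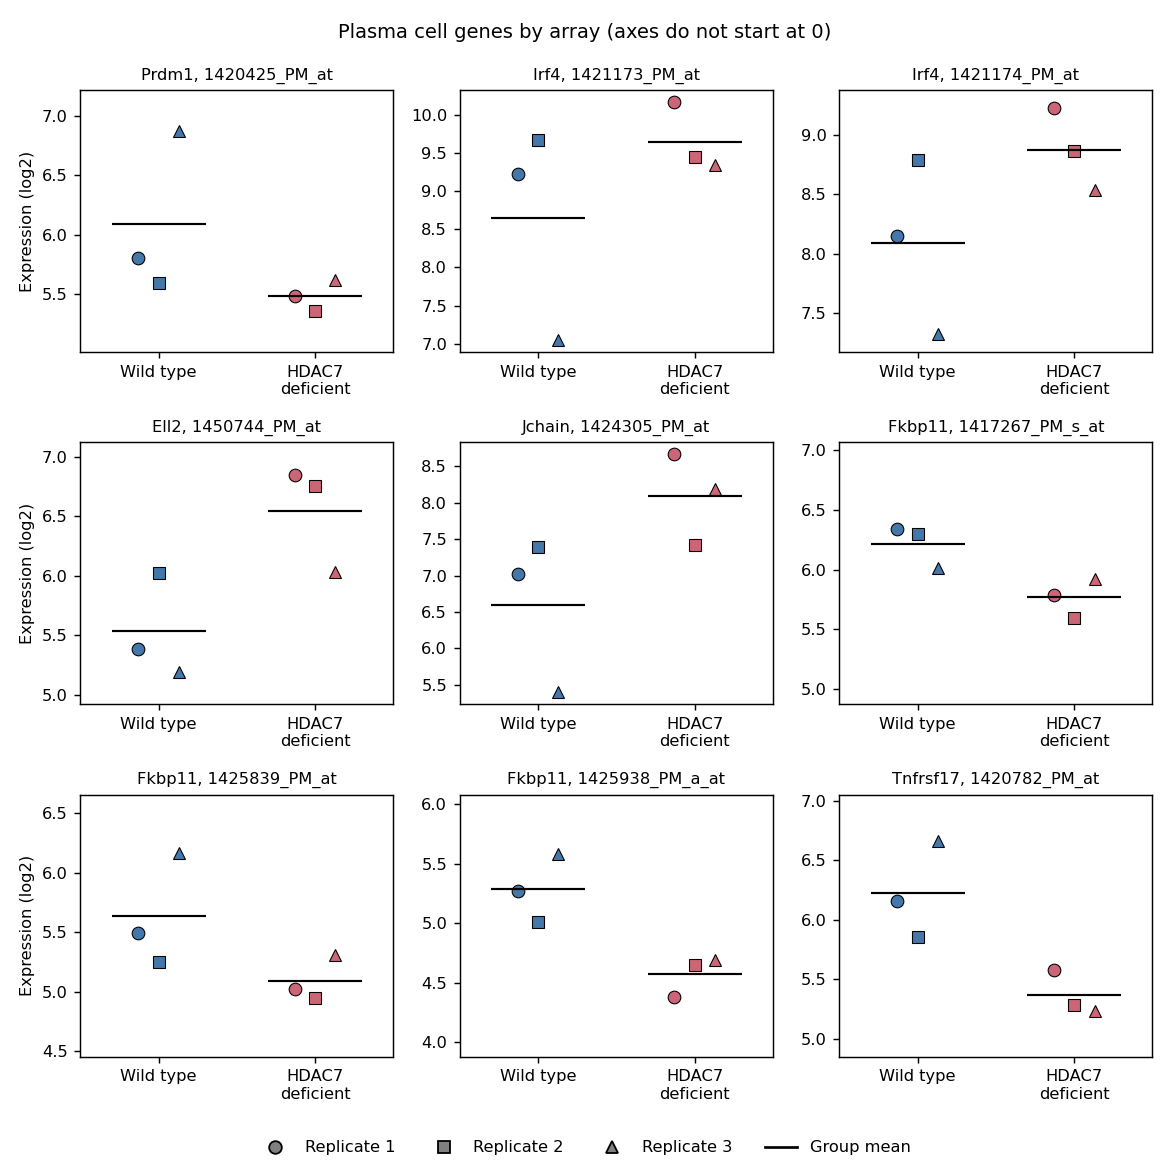
Log2 expression of the 9 probe sets of the measured plasma cell genes on each of 3 wild-type and 3 HDAC7-deficient arrays; symbols mark the replicate number, bars the group means, and axes do not start at 0. Jchain, Ell2, Tnfrsf17 and 2 of the 3 Fkbp11 probe sets have groups that do not overlap, and wild-type replicate 3 is the lowest array for Jchain, Irf4 and Ell2 and the highest for Prdm1 and Tnfrsf17.

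Prdm1 encodes BLIMP-1, the repressor that commits a B cell to the plasma cell fate. Its probe set (1420425_PM_at) read 5.80, 5.60 and 6.88 on wild-type replicates 1, 2 and 3 and 5.49, 5.36 and 5.62 on HDAC7-deficient replicates 1, 2 and 3. Wild-type replicate 3 was the only array above its own array median and above its brightest nonspecific control, and the groups overlapped, since HDAC7-deficient replicate 3 lay just above wild-type replicate 2. The means were 6.09 ± 0.69 and 5.49 ± 0.13 (SD, n = 3 each), a change of -0.61 ± 0.34 (SE, limma adjusted p = 0.388). Without wild-type replicate 3 the change was -0.21 ± 0.17 (limma adjusted p = 0.583), with the wild-type mean at 5.70 in place of 6.09. On that array Ms4a1, which encodes the mature B cell antigen CD20, read 11.35 against 4.57 to 7.40 on the other 5. The other measured mature B cell markers were divided there. Cr2 (6.69) and Fcer2a (7.24) were also highest on that array, Cd180 (7.78) and Ltb (4.33) were lowest, and Cd22 and Cd40 lay between. The part of mature B cells in the Prdm1 value was not tested.

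Irf4, the transcription factor that acts both in plasma cells and in B cell precursors, was above the array median on all 6 arrays. Its main probe set (1421173_PM_at) read 9.23, 9.68 and 7.05 in wild type and 10.17, 9.44 and 9.34 in HDAC7 deficient. HDAC7-deficient replicate 1 was the highest array and wild-type replicate 3 the lowest, and wild-type replicate 2 lay above HDAC7-deficient replicates 2 and 3, so the groups overlapped. The change was 1.0 ± 0.70 (95% interval -0.66 to 2.66, limma adjusted p = 0.423), and 0.20 ± 0.27 without wild-type replicate 3 (limma adjusted p = 0.765). The second probe set (1421174_PM_at) read 8.15, 8.79 and 7.33 in wild type and 9.22, 8.87 and 8.53 in HDAC7 deficient, with the same highest and lowest arrays. Its difference was 0.78 ± 0.43 (limma adjusted p = 0.371 over probe sets), or 0.40 without wild-type replicate 3.

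Ell2 encodes an elongation factor of RNA polymerase II that, in plasma cells, favours the secreted form of the heavy chain transcript. Its probe set (1450744_PM_at) read 5.39, 6.03 and 5.19 in wild type and 6.85, 6.76 and 6.03 in HDAC7 deficient. HDAC7-deficient replicates 1 and 2 were the highest arrays, and HDAC7-deficient replicate 3 exceeded wild-type replicate 2 by only 0.01. All 3 HDAC7-deficient arrays but only 1 of 3 wild-type arrays exceeded the brightest nonspecific control of their array. That control differed between arrays, from 4.81 on wild-type replicate 3 to 6.81 on wild-type replicate 2. The wild-type array above it was replicate 3, whose Ell2 value was the lowest, so these counts do not compare the groups. The wild-type level was near background, and no fold is given. The means were 5.53 ± 0.44 and 6.55 ± 0.45 (SD, n = 3 each), a change of 1.01 ± 0.32 (limma adjusted p = 0.377, unadjusted 0.0159). It was 0.84 ± 0.31 without wild-type replicate 3 (limma adjusted p = 0.310), 1.14 within the spike-in-low arrays and 1.21 within the spike-in-high ones.

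Jchain encodes the joining chain that links IgM and IgA into polymers, and it had the largest change of the 6. Its probe set (1424305_PM_at) read 7.01, 7.40 and 5.40 in wild type and 8.66, 7.42 and 8.19 in HDAC7 deficient. All HDAC7-deficient arrays were above all wild-type arrays, but HDAC7-deficient replicate 2 exceeded wild-type replicate 2 by only 0.03. The means were 6.60 ± 1.06 and 8.09 ± 0.62 (SD, n = 3 each), a change of 1.49 ± 0.58 or 2.81-fold (95% interval 0.11 to 2.87, limma adjusted p = 0.377). Without wild-type replicate 3, its lowest array, the change was 0.89 ± 0.36 or 1.85-fold (limma adjusted p = 0.339). Within the spike-in-low arrays, where HDAC7-deficient replicate 1 stood against wild-type replicates 1 and 2, it was 1.46, and within the spike-in-high arrays 2.41.

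Fkbp11 encodes a proline isomerase of the endoplasmic reticulum, where secreted proteins fold. Its main probe set (1417267_PM_s_at), whose suffix marks probes that can match several transcripts, read 6.34, 6.30 and 6.01 in wild type and 5.78, 5.60 and 5.92 in HDAC7 deficient. Here wild-type replicate 3 was the lowest wild-type array, and the gap between the groups was 0.09. The change was -0.45 ± 0.20 (limma adjusted p = 0.377), or -0.55 ± 0.18 without wild-type replicate 3 (limma adjusted p = 0.286). The probe set 1425938_PM_a_at read 5.27, 5.01 and 5.58 against 4.38, 4.65 and 4.69, again without overlap, and differed by -0.71 ± 0.19 (limma adjusted p = 0.313 over probe sets). The probe set 1425839_PM_at read 5.49, 5.25 and 6.16 against 5.02, 4.95 and 5.31, with overlapping groups and a change of -0.54 ± 0.27. All 3 were lower in HDAC7 deficient, and all 3 were dim, with no more than 3 of 6 arrays above the array median.

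Tnfrsf17 encodes BCMA, the receptor through which the cytokines APRIL and BAFF keep plasma cells alive. Its probe set (1420782_PM_at) read 6.15, 5.86 and 6.67 in wild type and 5.58, 5.29 and 5.24 in HDAC7 deficient. Every wild-type array was above every HDAC7-deficient one, and the gap of 0.28 between the groups was the widest of the 6 genes. The probe set was dim: 2 of 3 wild-type arrays and 0 of 3 HDAC7-deficient arrays exceeded the brightest nonspecific control of their array. That control ran from 4.81 on wild-type replicate 3 to 6.81 on wild-type replicate 2, so these counts do not compare the groups. All 3 HDAC7-deficient values were below the array median, and no fold is given. The means were 6.23 ± 0.41 and 5.37 ± 0.18 (SD, n = 3 each), a change of -0.86 ± 0.25 (95% interval -1.45 to -0.27, limma adjusted p = 0.377, unadjusted 0.0111). Without wild-type replicate 3 it was -0.64 ± 0.19 (limma adjusted p = 0.243), and within the spike-in-low arrays -0.43. Wild-type replicate 3 was again the highest array. Its mature B cell markers were divided, with Ms4a1, Cr2 and Fcer2a highest there and Cd180 and Ltb lowest. The part of mature B cells in the Tnfrsf17 value was not tested. In sorted bulk samples, fewer cells of a type and less RNA per cell cannot be told apart, for this gene as for the others.

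**Figure D2:**
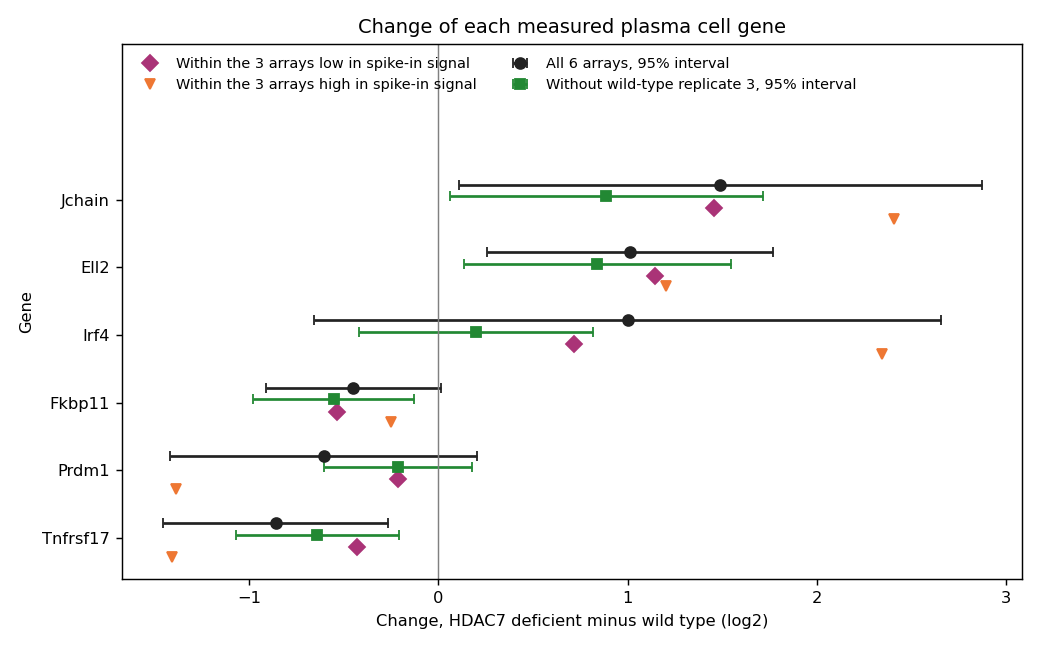
Change of each measured plasma cell gene, HDAC7 deficient minus wild type on the log2 scale, with all arrays and without wild-type replicate 3 (limma estimate with its 95% interval) and within each spike-in set (difference of means, no interval). Each gene keeps its direction in all 4 estimates, from -1.41 to -0.43 for Tnfrsf17 and from 0.89 to 2.41 for Jchain, while Irf4 lies at 0.20 without wild-type replicate 3. For Jchain, Ell2, Tnfrsf17 and Fkbp11, whose groups do not overlap, the kept direction was fixed in advance.

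All 6 genes kept their direction within both spike-in sets, as did 79.6% of all genes (35.6% higher, 43.9% lower). For the 4 genes whose groups did not overlap with all arrays, this outcome was fixed in advance. Leaving out wild-type replicate 3 likewise could not make their groups overlap, and the groups of Prdm1 and Irf4 overlapped without it too. The share of all genes without overlap was then 30.7%. Without that array 4 of 6 were under an unadjusted limma p of 0.05 (Tnfrsf17, Fkbp11, Ell2 and Jchain), against 14% of all genes. No gene of 17097 passed limma's adjusted p with or without that array, and 2399 were under an unadjusted p of 0.05 without it.

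The level of a gene moved with the direction of its change over the whole table. Among the 8548 dimmer genes, with a mean below the median gene's 6.43, 81.8% were lower in HDAC7 deficient with a median change of -0.33, and among the 8549 brighter genes 22.2% were lower with a median change of 0.42. Without wild-type replicate 3 these medians were -0.14 and 0.07. Prdm1, Tnfrsf17 and Fkbp11 were among the dimmer genes and were lower, like most of these, and Jchain and Irf4 were among the brighter genes and were higher. Ell2 was a dimmer gene and was higher; of the dimmer genes, the groups did not overlap with HDAC7 deficient higher for 3.01%, and with HDAC7 deficient lower for 27.9%. The part of level in the 6 changes was not tested.

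**Figure D3:**
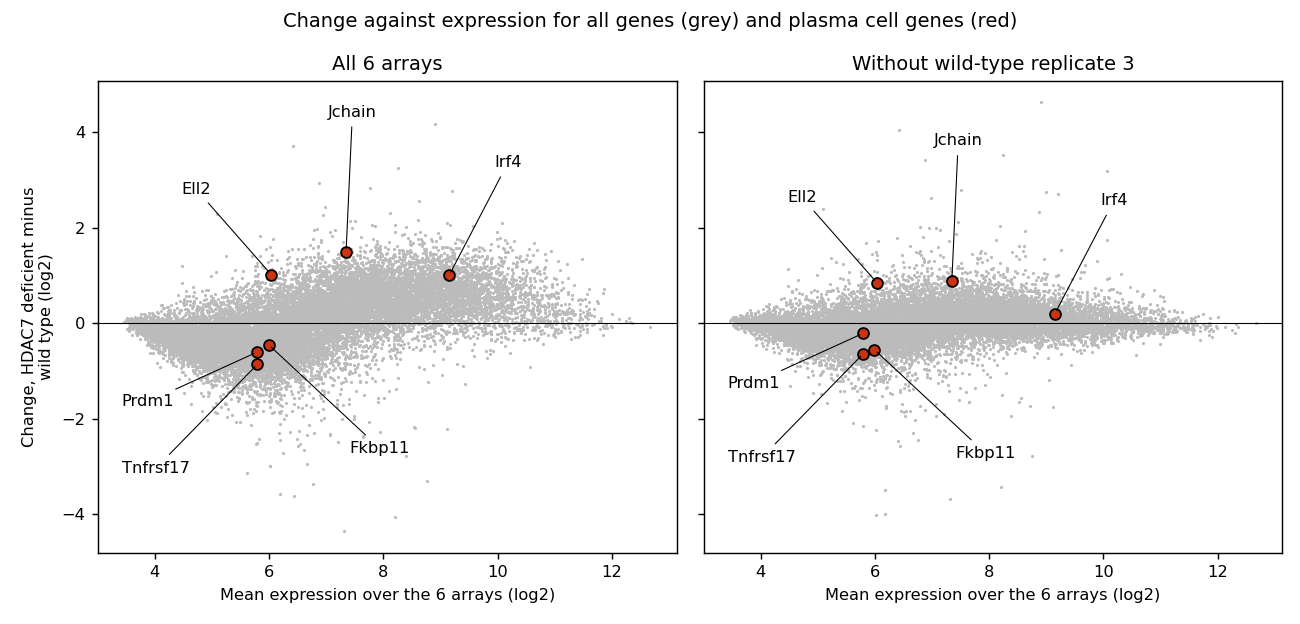
Change (HDAC7 deficient minus wild type, log2) against mean log2 expression over the 6 arrays for 17097 genes (grey) and the 6 plasma cell genes (red), with all arrays on the left and without wild-type replicate 3 on the right. With all arrays the cloud tilts from a median of -0.33 among the dimmer genes to 0.42 among the brighter ones, and Ell2, a dimmer gene, lies above 0 in both panels.

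The other genes of the plasma cell programme were taken from 5 lists. Only 3 of 15 listed immunoglobulin symbols had a named probe set, and all 3 were higher. Iglv1, a variable segment of the lambda light chain, read 7.37, 8.13 and 7.57 in wild type and 8.81, 9.42 and 9.87 in HDAC7 deficient. Every HDAC7-deficient array was above 8.13, the highest wild-type value, and the change was 1.68 ± 0.39 (limma adjusted p = 0.377, unadjusted 0.00355) or 1.62 without wild-type replicate 3. Igha, the constant region of IgA, differed by 0.74 ± 0.44, and Ighm, that of IgM, by 0.20 ± 0.28, both with overlapping groups.

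Of 40 listed genes of the secretory programme 38 were measured, and 37 of these were higher in HDAC7 deficient. All 38 were among the brighter genes, of which 77.8% were higher, against 48% of all genes. Their median change was 0.53, against 0.42 over the brighter genes. Groups did not overlap for 7 of 38, all higher, against 15.9% of the brighter genes. None of the 38 was under an unadjusted limma p of 0.05, against 12.7% of all genes (3.52% higher). Xbp1, the factor that drives the secretory expansion, read 8.85, 9.31 and 6.41 in wild type and 9.37, 9.70 and 9.51 in HDAC7 deficient. Wild-type replicate 3 was far below the other 5 arrays, and the change of 1.34 ± 0.74 was 0.44 without it. The chaperone gene Hspa5 differed by 1.0 ± 0.43, Edem1, which helps to clear misfolded glycoproteins, by 1.73 ± 0.89, and the cochaperone gene Dnajc3 by 0.86 ± 0.50, and without wild-type replicate 3 by 0.58, 0.61 and 0.31 (limma adjusted p = 0.377 to 0.392 for the 4 genes with all arrays). Without that array the list's median was 0.10, against 0.07 over the brighter genes, and 26 of 38 were higher, against 59.3% of the brighter genes. Groups then did not overlap for 8 that were higher and 2 that were lower, where 11.8% and 19% of all genes did so. These shares are over genes of every level and not over the brighter genes alone, so they are no like background for this list. Under an unadjusted limma p of 0.05 were then 3 of 38, all higher, against 14% of all genes (5.19% higher). Fkbp11, which serves the same compartment, was lower with all 3 of its probe sets.

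Of 25 listed regulators and survival genes of plasma cells 23 were measured, 16 higher and 7 lower, with a median change of 0.33, or 0.15 without wild-type replicate 3. The costimulatory receptor gene Cd28 read 7.18, 7.83 and 7.52 in wild type and 8.33, 8.40 and 8.12 in HDAC7 deficient, without overlap, a change of 0.77 ± 0.29 that was 0.78 without wild-type replicate 3. The tetraspanin gene Cd9 differed by 1.09 ± 0.44, the survival factor gene Mcl1 by 1.55 ± 0.74 and the interleukin 6 receptor gene Il6ra by 0.94 ± 0.42, or 0.66, 0.66 and 0.68 without that array. Of the 23, Cd28 and Cd9 were under an unadjusted p of 0.05, both higher, against 12.7% of all genes (3.52% higher). Groups did not overlap for 3 of 23, all higher, against 26.3% of all genes (9.45% higher), and none passed limma's adjusted p (0.377 for each of these 4 genes). Without wild-type replicate 3 groups did not overlap for 7 of 23, all higher, against 30.7% of all genes (11.8% higher). Under an unadjusted limma p of 0.05 were then 4 of 23, all higher, against 14% of all genes (5.19% higher). Among the brighter genes were 19 of the 23, and the part of level was not tested.

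Genes that hold B cell identity, many of them repressed by BLIMP-1, were mostly higher as well, and 13 of the 15 measured, of 16 listed, were among the brighter genes. Of the 15, 13 were higher and 2 lower, where 77.8% of the brighter genes were higher. The median change was 0.50, or 0.11 without wild-type replicate 3, against 0.42 and 0.07 over the brighter genes. The part of level was not tested. None was under an unadjusted limma p of 0.05 with or without that array, against 12.7% and 14% of all genes. Pax5, the B cell commitment factor, differed by 0.82 ± 0.57, Id3, an inhibitor of E proteins, by 0.99 ± 0.51, Spi1, which encodes PU.1, by 0.80 ± 0.43 and the MHC class II activator gene Ciita by 0.59 ± 0.29. Without wild-type replicate 3 these values were 0.24, 0.47, 0.33 and 0.49, and with all arrays the groups did not overlap for 1 of 15, Ciita, which is below the 26.3% of all genes (9.45% higher).

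Among the partners of ELL2 in transcript elongation 11 of 13 were measured, 9 higher and 2 lower, with a median change of 0.44, or 0.17 without wild-type replicate 3. Ccnt2, a cyclin subunit of the elongation kinase P-TEFb, read 7.01, 7.42 and 6.61 in wild type and 8.10, 7.69 and 7.60 in HDAC7 deficient, without overlap. It differed by 0.79 ± 0.31 (limma adjusted p = 0.377), or 0.58 without that array, and was the 1 gene of 11 under an unadjusted p of 0.05, against 12.7% of all genes. With that array left out limma gave 0 of 11 under an unadjusted p of 0.05, against 14% of all genes, and 0 under the adjusted one. Groups then did not overlap for 3 of 11, all higher, against 30.7% of all genes (11.8% higher). Aff1, Ell and Ccnt1 differed by 0.91 ± 0.50, 0.51 ± 0.32 and 0.44 ± 0.29, or 0.37, 0.21 and 0.29 without it.

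**Figure D4:**
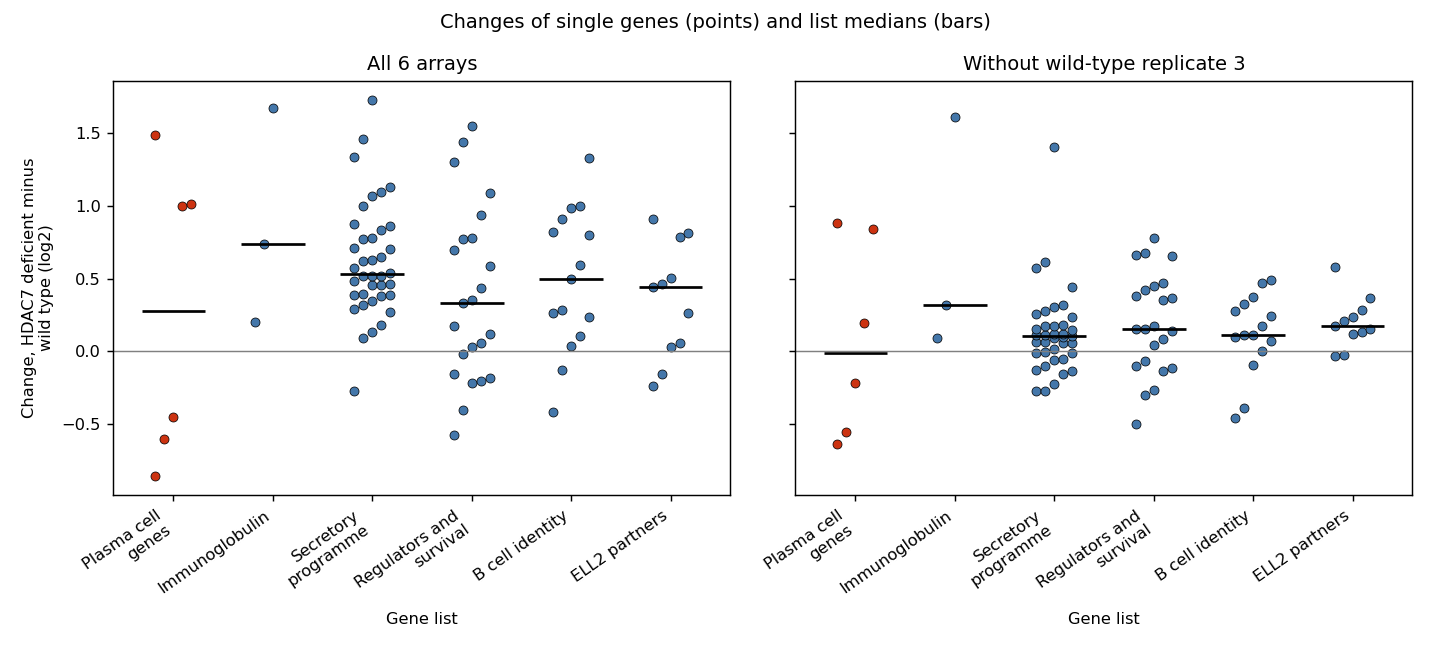
Change of single genes (points; HDAC7 deficient minus wild type, log2) in the 6 plasma cell genes and 5 lists, with list medians as bars, with all arrays on the left and without wild-type replicate 3 on the right. Medians of the secretory, survival, identity and elongation lists are 0.53, 0.33, 0.50 and 0.44 on the left and 0.10, 0.15, 0.11 and 0.17 on the right, while the plasma cell genes split into 3 above and 3 below 0 in both panels.

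Markers of the sorted cells and of other cells the gate could hold were read beside these genes. Of 15 pro-B cell markers 12 were measured, all above the brightest nonspecific control of every array, with a mean of 8.59 to 9.95 over the wild-type arrays and 9.36 to 10.18 over the HDAC7-deficient ones. All 12 measured of 16 markers of plasmacytoid dendritic cells, which also carry B220, were higher in HDAC7 deficient. Of all genes 48% were higher, and of the brighter genes 77.8%. The mean level of these markers was 8.85, 9.30 and 7.06 on the wild-type arrays and 9.28, 10.0 and 9.81 on the others. Their median change was 1.34, or 0.47 without wild-type replicate 3, against 0.42 and 0.07 over the brighter genes. The plasmacytoid mean was lowest, at 7.06, on wild-type replicate 3, the lowest array for Jchain, Irf4 and Ell2. The pro-B mean (8.59) and the neutrophil, natural killer, macrophage, T cell and erythroid means were also lowest there, and the mature B cell mean was highest. On HDAC7-deficient replicate 1, the highest array for Jchain, Irf4 and Ell2, the plasmacytoid mean was 9.28 and the pro-B mean was at its highest, 10.18. The plasmacytoid mean was highest on HDAC7-deficient replicate 2, at 10.0. Neutrophil markers were bright in both groups (8.98 to 10.67 and 10.40 to 10.90, all 10 measured, 8 higher), and natural killer markers lay at 7.09 to 8.72 and 8.47 to 8.90 (all 10 measured, 8 higher). Macrophage markers lay at 7.17 to 7.76 and 7.90 to 8.38 (9 of 10 measured, 7 higher). Mature B cell markers lay at 6.58 to 7.72 and 6.70 to 7.27 (7 of 9 measured, 3 higher), T cell markers at 6.55 to 7.50 and 7.23 to 7.83 (7 of 10 measured, 6 higher), and erythroid markers at 7.08 to 7.70 and 7.29 to 8.11 (6 of 8 measured, 4 higher). No marker is at 0 on this scale, and the part of these cells in the 6 changes was not tested.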

How the data were processed

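Total RNA of sorted pro-B cells was amplified and hybridised to Affymetrix perfect-match mouse arrays, as the labels state. Each probe set has 1 deposited log2 value per array; the scale was read from the values, and the sources used here do not give the summarisation or normalization. Of 45141 probe sets 104 were controls. Of the other 45037, 28898 had 1 gene symbol in the platform annotation, 551 several and 15588 none; 28689 were matched by Entrez number to current symbols (RefSeq, GRCm38.p6). Genes were fitted with limma 3.58.1 in R 4.3.3 with an intensity trend, two-sided, with Benjamini-Hochberg adjustment over 17097 genes (or 45037 probe sets) at 0.05 and no filter on dim probe sets. The number of arrays limits the precision: an exact permutation test of 3 against 3 arrays cannot go below 0.1. The labels call the replicates biological without naming animals, so p-values measure the spread between these samples. Fits and motif searches were tested on simulated data. Figures were drawn with matplotlib 3.10.9. The members, lists, naming rule (all members, Hdac7, the 4 genes of smallest p per list, and all markers by level) and alternatives were chosen with earlier results of these data known. Dimness was judged by array medians and 23 nonspecific control probe sets. Ms4a1 was singled out after its values were seen.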

Additional observations from a re-analysis of the deposited data

How the results depend on the processing

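The 6 plasma cell genes were refitted under 15 alternatives, and in all 90 values the direction was as reported. For many of these values that outcome was fixed in advance. Dropping the intensity trend or the dimmest genes, or adding the replicate block, left every change as it was. For Jchain, Ell2, Tnfrsf17 and Fkbp11, whose groups did not overlap, leaving out an array, a block or array weights could not turn the sign. Of the 90 values, 85 also stayed short of an adjusted p of 0.05. The other 5 came from limma's array weights (gene-by-gene method), which called 5 of the 6 genes (all but Irf4, adjusted p = 0.000526 to 0.0358), but also 49.4% of all genes, with a weight of 8.68 on wild-type replicate 1 against 0.471 and 0.0716 on the other wild-type arrays. The default weights did not converge and were not used. At an unadjusted p under 0.05 the count of 3 was 1 to 4 with single arrays left out, where the share of all genes ran from 3.66% to 33.9% (33.9% without wild-type replicate 2, with 4 genes), 5 with the spike-in division as a block (42.6%) and 5 with array weights (56.2%). Quantile normalization of the deposited values left 2 genes without overlap, against 4 as reported, and 24.7% of all genes. The median change of 0.28 ran from -0.0079 to 0.42 with single arrays left out and was -0.046 with array weights; the cause was not tested. Centring on array medians moved the median over all genes from -0.03 to 0.10. Correlations did not settle whether the replicate numbers pair the arrays. Deviations of same-numbered arrays correlated at 0.0964, 0.208 and 0.476. Wild-type replicate 1 correlated at 0.111 with HDAC7-deficient replicate 2, and wild-type replicate 2 at 0.357 with HDAC7-deficient replicate 1. With the replicate number as a block 0 of the 6 genes and 1 of all genes passed limma's adjusted p. Under an unadjusted p of 0.05 were then 3 of the 6, against 20.6% of all genes.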
